A study of Xenopus tropicalis with 2 samples.

Results

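The genes described here are all 47 genes of the matrix whose symbol names a Wnt ligand (21), a Frizzled receptor (10), an R-spondin (3), an Lgr4 to Lgr6 type receptor (2), a member of the Sfrp and Frzb family (6), a Dkk (3) or an Axin (2), of 21821 genes in all. They were chosen by name and not by their values. The RNA came from nuclei of whole wild-type embryos of Xenopus tropicalis at stage 10.5, the early gastrula, in 1 pool of nuclei that was split into 2 sublibraries before amplification. The sublibraries are technical replicates of 1 sample, so no test between conditions was possible and no p-value is given, and the main levels are shown in both. No other stage, treatment or genotype was analysed here.

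Wnt proteins are secreted ligands that bind Frizzled receptors and Lrp co-receptors at the cell surface, and in the gastrula they pattern the embryo along its dorsal to ventral and head to tail axes. R-spondins strengthen the signal through Lgr receptors, secreted Frizzled-related proteins (Sfrp, Frzb) bind the ligand or the receptor, and Dickkopf (Dkk) proteins block the co-receptor. Axin proteins are the scaffold on which beta-catenin is marked for degradation when no ligand is bound. In Xenopus gastrulae, Wnt8 of the ventral and lateral marginal zone and the Wnt antagonists of the dorsal organizer are the textbook pair of opposing signals.

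At least 1500 genes were detected in 4245 barcodes of sublibrary 1 and 4229 of sublibrary 2, which held 44341256 and 44026454 distinct transcripts (unique molecular identifiers, UMIs) over all their barcodes. Removal of doublets left 7690 nuclei, with medians of 4503.5 and 4517.5 UMIs, and the sublibraries shared 206 barcode well combinations among nuclei. Clustering without the genes described here gave 21 states, which were named from marker genes and are called "-like" for that reason. Each is referred to by 1 of its leading genes. Ectoderm-like nuclei (4226) fell into 6 inner and 4 outer states. Mesoderm- and endoderm-like nuclei (2071) fell into 6 states: dorsal mesoderm-like shh and lhx6, ventral mesoderm-like myf5, dorsal endoderm-like foxp2, ventral endoderm-like gata5, and slc12a3l, an outer dorsal state of either germ layer. The states bmper and tbxt stayed unnamed, and 3 states (hepacam, cyp3a5 and rasal1) were set apart by dscaml1 and tp73. The axis names rest on genes such as the following, which were naming markers and so are no independent check. The dorsal genes chrd.1 and gsc stood at 3861 and 255 CPM (UMIs of the gene for every 1e+06 UMIs of the state) in the foxp2 state, against 1202 and 20.98 CPM in the gata5 state. Hhex, a gene of dorsal endoderm, stood at 349 CPM in the foxp2 state and at 44.4 CPM in the gata5 state. Pnhd, a gene of ventral marginal tissue, stood at 117 CPM in the foxp2 state and at 977 CPM in the gata5 state. The side of the gata5 state came from lists pooled over both germ layers, with mean marker scores of 0.67 dorsal and 1.27 ventral. On the endoderm lists alone it scored 1.19 for dorsal and 1.06 for ventral. It also held 232 CPM of cer1 (420.5 in the foxp2 state) and 987 CPM of tbxt. Msgn1 (15.4 CPM) and tbx6 (40.1 CPM), markers of ventral mesoderm, were highest there of all states. The mesoderm-like pair was uneven as well. Chrd.1 stood at 5719 CPM in the shh state and 294 CPM in the lhx6 state, against 387 CPM in the myf5 state, and gsc at 109 and 3.47 CPM, against 10.5 CPM. The lhx6 state, 459 of the 727 dorsal mesoderm-like nuclei, thus held less of both than the ventral state. It was set apart more by low ventral markers, with 65.1 CPM of ventx1.2 and 97.6 CPM of pnhd, against 365 and 714 CPM in the myf5 state, and by shh at 47.7 against 3.37 CPM. Of the ventral mesoderm list, 10 genes exceeded their level in all other nuclei in the myf5 state, 2 in the shh state and 1 in the lhx6 state. Tbx6 was higher in the shh state (34.2 CPM) than in the myf5 state (16.9 CPM). The gene myf5 did not separate the pair, at 67.6 CPM (shh state), 50.8 CPM (lhx6 state) and 67.4 CPM (myf5 state).

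Of the 47 genes, 30 reached the minimum of 50 UMIs in the 8474 nuclei before doublets were removed: 9 ligands, 8 Frizzled receptors, all 3 R-spondins, lgr4 and lgr5, 5 of the Sfrp family, dkk1 and both Axin genes. The member just inside the minimum was wnt5a with 53 UMIs (45 in the nuclei kept), and the one just outside was wnt7b with 43. The other 16 under it were wnt1, wnt2, wnt2b, wnt3, wnt6, wnt7c, wnt9b, wnt10a, wnt10b, wnt11, wnt16, fzd5, fzd9, sfrp5, dkk2 and dkk3, with 2 (wnt1) to 40 UMIs (wnt11 and dkk3), and no pattern over states could be read for them. Among the 30, UMIs in all nuclei ran between 53 for wnt5a and 36073 for lgr4. Totals of different genes were not compared, since they depend on gene length and structure. In the assembly UCB_Xtro_10.0, wnt8a lies on chromosome 3 (31425670 to 31431210), wnt8b on chromosome 7 (42509917 to 42535061) and frzb on chromosome 9 (62056741 to 62070685). Rspo2 lies on chromosome 6 (133533814 to 133622398), rspo3 on chromosome 5 (67822985 to 67874479) and dkk1 on chromosome 7 (13846118 to 13850836). Frzb2 on chromosome 4 (136575791 to 136582888) overlaps p4htm, and wnt5b on chromosome 3 (9365361 to 9455621) overlaps fbxl14. The sources used here do not say how reads shared by overlapping or similar genes were assigned.

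The 30 members differed widely in how far they were restricted to a state. In 14 of them the highest state lay at least 4-fold above the median of the 21 states in each sublibrary, which held for 16.4% of all 11721 genes with at least 50 UMIs. Of these 14, 4 (wnt8a, wnt8b, rspo2 and rspo3) were highest in the ventral endoderm-like gata5 state and 4 (frzb2, fzd8, dkk1 and sfrp1) in the dorsal endoderm-like foxp2 state. Wnt5b and wnt11b were highest in the tbxt state, sfrp2 and fzd4 in the outer ectoderm-like kcnip1 state, rspo1 in the hepacam state and frzb in the cyp3a5 state. For frzb the order cannot be told. It stood at 2960 CPM in the cyp3a5 state and 2928 CPM in the foxp2 state, with sublibrary values that overlapped. The foxp2 state held 43.5% of its UMIs. At the other end, axin1 ran between 116 CPM in the cyp3a5 state and 262 CPM in the inner ectoderm-like pax3 state, the smallest range of the 30 (1.17 on the log2 scale of CPM + 1).

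**Figure D1:**
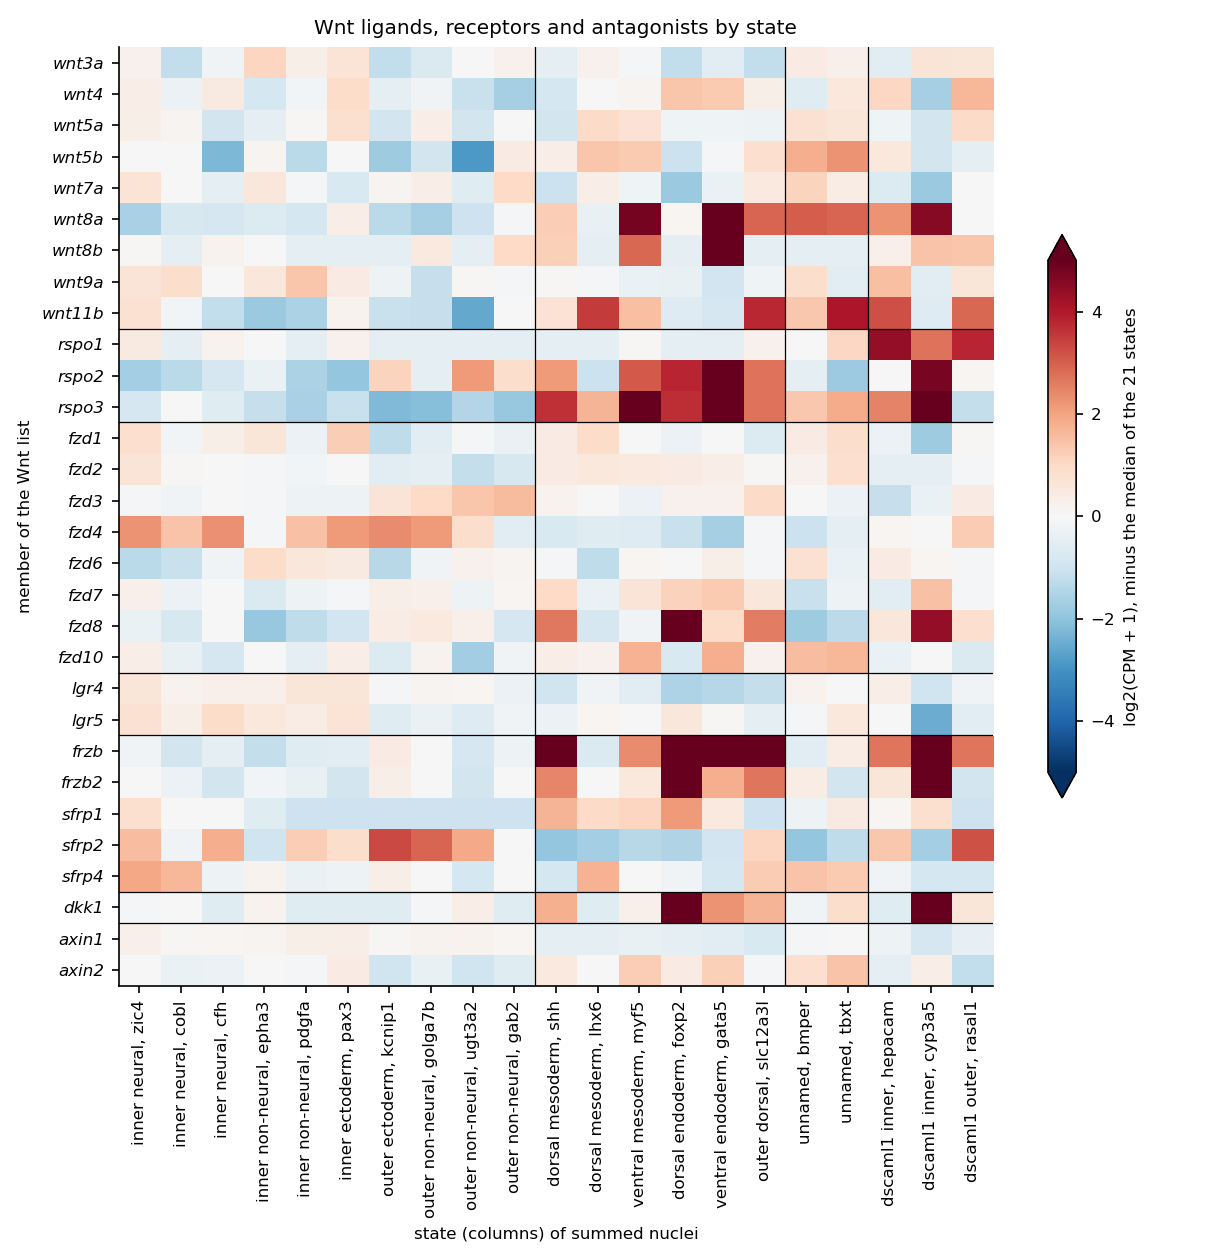
Level of each of the 30 members (rows, grouped by role) in the 21 states (columns), as log2(CPM + 1) of the summed UMIs minus the member's median over the states, with colours held at 5 above and below. Wnt8a, rspo2 and rspo3 are highest in the ventral endoderm-like gata5 column, frzb2, dkk1 and fzd8 in the dorsal endoderm-like foxp2 column, and axin1 is pale throughout.

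Ectoderm-like nuclei were first set against mesoderm- and endoderm-like nuclei. A gene was called when its ratio of CPM + 1 was at least 2-fold with the same sign in both sublibraries. In all, 3 of the 30 members were higher in ectoderm-like nuclei (sfrp2, fzd4 and lgr4), against 6.2% of all genes, and 12 were lower, against 8.32% of all genes. The median log2 ratio of the members was -0.61, and that of all genes 0.08. The 12 were 4 ligands (wnt5b, wnt8a, wnt8b and wnt11b), rspo2 and rspo3, the receptors fzd8 and fzd10, and the antagonists frzb, frzb2, sfrp1 and dkk1. Frzb, which binds Wnt8 in Xenopus, showed the lowest of these ratios (log2 ratio -5.98 ± 0.03, SD, n = 2 sublibraries). In ectoderm-like nuclei it stood at 9.56 and 10.9 CPM, against 678 and 741 CPM in the mesoderm- and endoderm-like ones. Over single states frzb overlapped, since the ectoderm-like states spanned 5.42 to 18.7 CPM and the dorsal lhx6 state stood at 7.81 CPM.

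Rspo3 showed 6.93 and 9.05 CPM in ectoderm-like nuclei, against 448 and 529.9 CPM in the mesoderm- and endoderm-like ones (log2 ratio -5.76 ± 0.07). Wnt8a showed 9.56 and 14.8 CPM, against 312 and 316 CPM (log2 ratio -4.58 ± 0.39). The 10 ectoderm-like states overlapped with the others for wnt8a, since they spanned 6.20 to 28.4 CPM while the dorsal lhx6 state stood at 16.9 and the foxp2 state at 23.3 CPM. They did not overlap for rspo3, at 3.40 to 19.0 CPM against 63.8 to 1693 CPM. Wnt5b, a ligand known for signalling without beta-catenin, was lower by less, at 107 and 106 CPM against 290 and 259 CPM (log2 ratio -1.36 ± 0.11). Its states overlapped, at 20.7 to 209 CPM in the ectoderm-like states and 73.7 to 417 CPM in the mesoderm- and endoderm-like ones.

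The 3 of 30 members higher in ectoderm-like nuclei (10%, against 6.2% of all genes) are given singly, and no pattern by role is read from them. Sfrp2 stood at 73.8 and 67.3 CPM in ectoderm-like nuclei and at 11.2 and 12.5 CPM in the mesoderm- and endoderm-like ones (log2 ratio 2.48 ± 0.20). Fzd4 stood at 28.6 and 28.0 CPM, against 4.78 and 4.05 CPM (log2 ratio 2.43 ± 0.12). Lgr4, a receptor of R-spondins, stood at 860 and 850 CPM, against 414 and 376 CPM (log2 ratio 1.11 ± 0.09, but 0.75 with a minimum of 2000 genes). Over single states none of the 3 differences was complete. Sfrp2 spanned 9.03 to 195 CPM in the ectoderm-like states and 4.27 to 41.2 CPM in the mesoderm- and endoderm-like ones. Fzd4 spanned 5.21 to 44.6 CPM and 1.85 to 7.44 CPM. For lgr4 the ectoderm-like states spanned 569.9 to 1077 CPM, and the lhx6 state of dorsal mesoderm reached 621 CPM. The lowest lgr4 levels were in the foxp2 (238 CPM) and gata5 (260 CPM) states, and the second of these is where rspo2 and rspo3 were highest.

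Dorsal endoderm-like nuclei (287) were set against ventral endoderm-like nuclei (321). Of the 30, 5 members were higher in dorsal endoderm-like nuclei (4.62% of all genes) and 6 were lower (3.83% of all genes). Those higher were the antagonists frzb, frzb2, dkk1 and sfrp1 and the receptor fzd8. Those lower were wnt7a, wnt8a and wnt8b, rspo2 and rspo3, and the receptor fzd10. The median log2 ratio was -0.00 over the members and -0.00 over all genes.

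Wnt8a showed 30.3 and 15.6 CPM in dorsal endoderm-like nuclei, against 967 and 941.3 CPM in ventral endoderm-like nuclei (log2 ratio -5.30 ± 0.62). These levels rest on 38 and 1547 UMIs. Wnt8b, a second Wnt8 gene on another chromosome, had 0 UMIs in dorsal and 85 in ventral endoderm-like nuclei, so that it was at least 28.5-fold lower when 3 counts over the class are taken as the limit. Rspo3 showed 203 and 318 CPM, against 1575 and 1819 CPM (log2 ratio -2.71 ± 0.31), and rspo2 439.7 and 568 CPM, against 1741 and 1580 CPM (log2 ratio -1.73 ± 0.36). Both R-spondins were still present in dorsal endoderm-like nuclei, at levels above those of every ectoderm-like state. Fzd10 showed 12.8 and 18.1 CPM, against 95.6 and 96.9 CPM (log2 ratio -2.57 ± 0.32). For wnt7a, 0 UMIs faced 3 UMIs, and no fold can be given.

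Frzb showed 2828 and 3039 CPM in dorsal endoderm-like nuclei, against 490 and 548 CPM in ventral endoderm-like nuclei (log2 ratio 2.50 ± 0.04). Frzb2, known in Xenopus as crescent, showed 226 and 229 CPM, against 8.37 and 2.55 CPM (log2 ratio 5.13 ± 1.00), and 70% of its UMIs over all nuclei kept were in the foxp2 state. Dkk1, which blocks Lrp5 and Lrp6 and is needed for head formation, showed 126 and 101 CPM, against 8.37 and 3.83 CPM (log2 ratio 4.01 ± 0.45). Fzd8 showed 582 and 515 CPM, against 33.5 and 24.2 CPM (log2 ratio 4.20 ± 0.19). Sfrp1 had 13 UMIs in dorsal and 3 in ventral endoderm-like nuclei, a ratio of 4.31 with a 95% counting interval of 1.18 to 23.6.

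**Figure D2:**
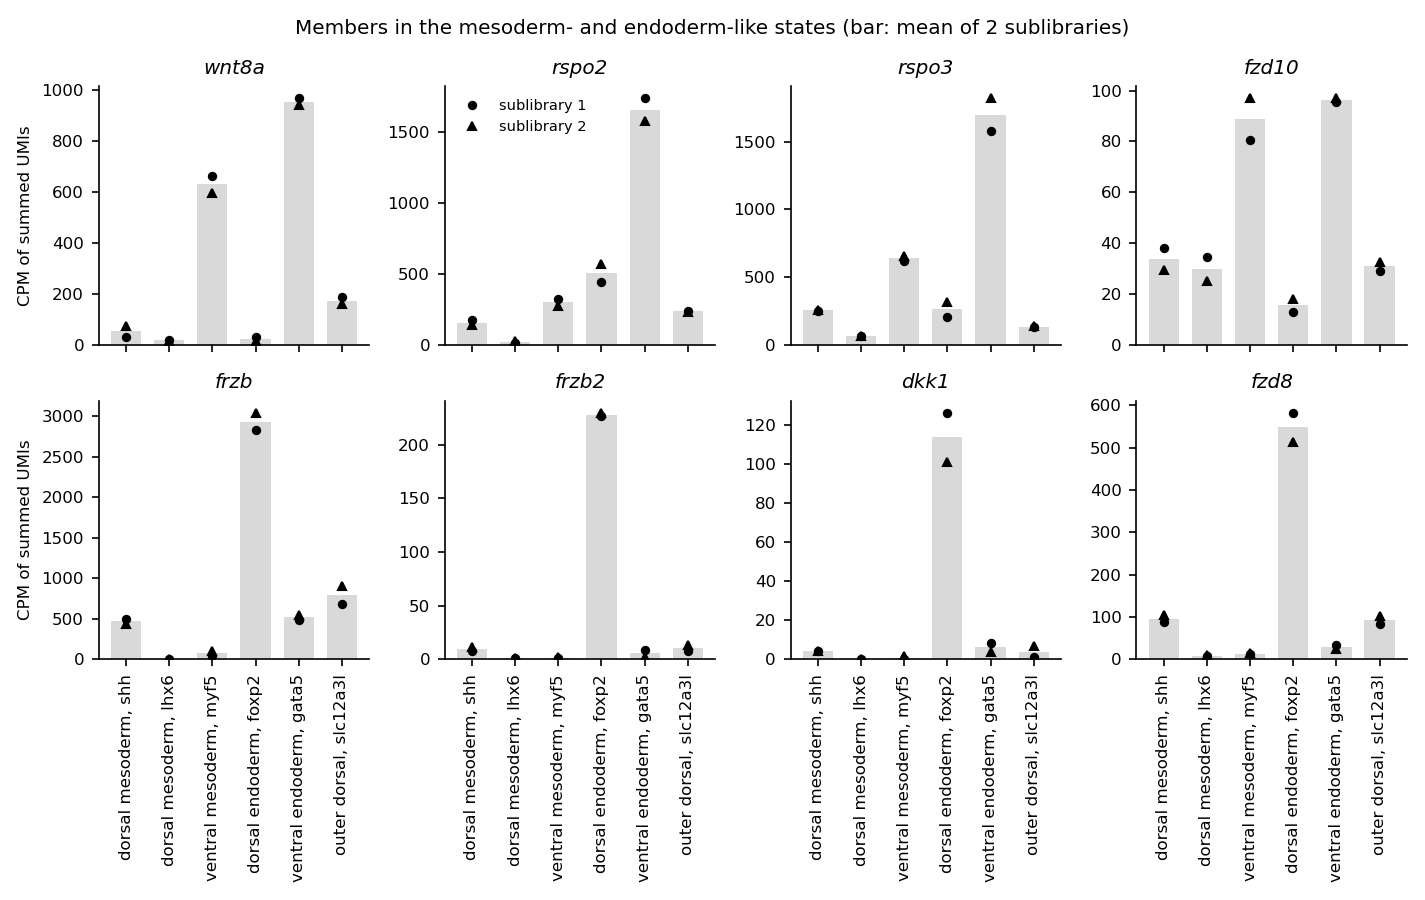
CPM of the summed UMIs of 8 members in the 6 mesoderm- and endoderm-like states, with the value of each sublibrary as a point and their mean as a bar, on an axis from 0. In the upper row wnt8a, rspo2 and rspo3 peak in the ventral gata5 state. The order of the gata5 and myf5 states cannot be told for fzd10 (96.3 and 89.4 CPM). The lower row peaks in the dorsal foxp2 state, where frzb reaches 2928 CPM.

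Dorsal mesoderm-like nuclei (727) were set against ventral mesoderm-like nuclei (420). Here 2 members were higher in dorsal mesoderm-like nuclei (2.1% of all genes), or 7 with sublibrary 1 alone, and 5 were lower (1.83% of all genes). All 5 that were lower (wnt8a, wnt8b, rspo2, rspo3 and fzd10) were also lower in dorsal endoderm-like nuclei. The comparisons share no nuclei but are not independent. Both come from 1 pool, and their sides were named from the same pooled dorsal and ventral marker lists. The share of all genes lower in both was not counted, so nothing is read from the overlap. Wnt8a showed 22.03 and 40.3 CPM in dorsal mesoderm-like nuclei, against 663 and 595 CPM in ventral mesoderm-like nuclei (log2 ratio -4.32 ± 0.71). Rspo3 showed 126 and 146 CPM, against 620 and 655 CPM (log2 ratio -2.23 ± 0.09), and rspo2 65.6 and 73.0 CPM, against 324 and 275 CPM (log2 ratio -2.09 ± 0.27). Fzd10 showed 35.5 and 26.9 CPM, against 80.6 and 96.9 CPM (log2 ratio -1.47 ± 0.46). Wnt8b had 3 UMIs against 21 UMIs, a ratio of 10.9 in favour of ventral nuclei with a 95% counting interval of 3.27 to 57.3. With a minimum of 1000 genes per nucleus in place of 1500, which changed the states, the log2 ratios were -0.01 for rspo2, -0.35 for rspo3 and 0.38 for wnt8b, and none was called. With the shh state alone as dorsal mesoderm-like nuclei, chosen after seeing the data, 4 members were higher and 4 lower, and rspo2 was not called (log2 ratio -0.93). The shares of all genes were not counted for this setting or for sublibrary 1 alone, so nothing is read from those counts.

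Wnt11b, a ligand known in Xenopus for its part in gastrulation movements, was higher in dorsal mesoderm-like nuclei as a class, through its lhx6 state. It showed 119 and 91.1 CPM in dorsal mesoderm-like nuclei, against 42.1 and 36.7 CPM in ventral mesoderm-like nuclei (log2 ratio 1.42 ± 0.13). This ratio was 0.14 with a minimum of 1000 genes, 0.30 without removal of doublets, 0.34 at a clustering resolution of 3 and -0.80 without the lhx6 state. The states of the class differed, and wnt11b stood at 158 CPM in the lhx6 state and at 22.1 CPM in the shh state. Fzd8 had the opposite order, at 7.81 CPM in the lhx6 state and 96.1 CPM in the shh state, and the class showed 34.5 and 49.1 CPM, against 11.9 and 14.1 CPM (log2 ratio 1.59 ± 0.19). Frzb was split in the same way, with 466 CPM in the shh state and 7.81 CPM in the lhx6 state, against 75.0 CPM in the myf5 state. Its class ratio was 1.91 and 0.91 on the log2 scale in the sublibraries, so it was not called. Frzb2 and dkk1 were low in both classes (4.04 against 1.69 CPM, and 1.62 against 0.84 CPM). Within the dorsal class they were split like frzb. Frzb2 stood at 9.25 CPM in the shh state and 0.87 CPM in the lhx6 state, and dkk1 at 4.27 and 0 CPM.

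**Figure D3:**
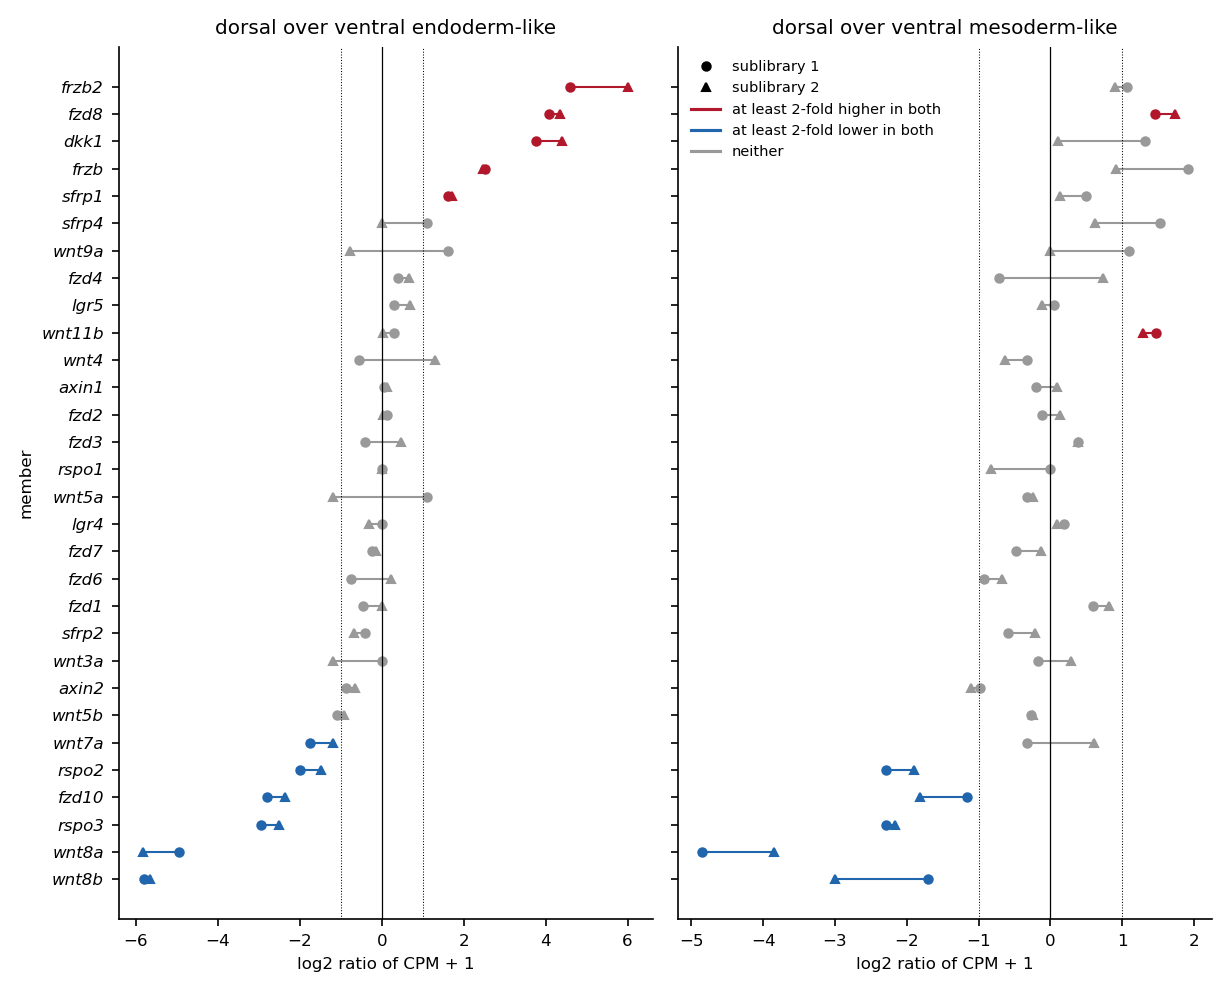
Log2 ratio of CPM + 1, dorsal over ventral, of the 30 members in endoderm-like nuclei (left) and mesoderm-like nuclei (right), with 1 point per sublibrary joined by a line and dotted lines at 2-fold. Wnt8a, wnt8b, rspo2, rspo3 and fzd10 lie to the left in both panels, whereas frzb2, dkk1 and frzb pass 2-fold in both sublibraries only on the left. The dorsal side of the right panel pools the shh and lhx6 states, and frzb2, dkk1 and frzb were higher in the shh state. The difference between the panels was not tested.

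Levels per state do not show whether single nuclei hold both kinds of gene. Each nucleus was therefore thinned to 2500 UMIs, a depth that all 7690 nuclei reached, and nuclei with at least 1 UMI were counted. Wnt8a was found in 3.48% of the nuclei of the foxp2 state (95% Clopper-Pearson interval 1.68 to 6.31%), against 73.5% of the gata5 state (68.3 to 78.3%). In the 10 ectoderm-like states the share was 0.81 to 4.95%, a range that holds the share of the foxp2 state, so no expression is read from it there. In the shh state it was 7.84% (4.92 to 11.7%) and in the myf5 state 67.9% (63.2 to 72.3%). Frzb was found in 97.6% of the nuclei of the foxp2 state (95.04 to 99.01%), against 38.0% of the gata5 state (32.7 to 43.6%) and 0.77 to 3.35% of ectoderm-like states. Intervals cover counting error only.

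Wnt8a was counted against 3 of the genes higher in dorsal endoderm-like nuclei, frzb2, dkk1 and fzd8, and against frzb on its own. Because that comparison picked these genes, their opposite shares in the foxp2 and gata5 states restate it. Of the 287 nuclei of the foxp2 state, 210 held a UMI of frzb2, dkk1 or fzd8 but none of wnt8a, 4 held wnt8a alone, 6 held both and 67 neither. The product of the shares would give 7.53 nuclei with both, close to the count, and few could be met because few nuclei held wnt8a. Of the 321 nuclei of the gata5 state, 19 held frzb2, dkk1 or fzd8 alone, 230 held wnt8a alone, 6 held both and 66 neither, where the product would give 18.4 with both. In the gata5 state wnt8a was found in 55.7% of nuclei with frzb and in 84.4% of nuclei without it. Wnt8a was found with frzb in 21.2% of nuclei (16.8 to 26.1%), where the product of both shares is 27.9%. In the foxp2 state all 10 nuclei with wnt8a held frzb, which 97.6% of its nuclei held. With rspo3 the shared nuclei were 66.7% (61.2 to 71.8%) against a product of 63.7% in the gata5 state, and 43.1% (38.3 to 48.0%) against 39.6% in the myf5 state. Absence of a UMI at this depth does not show absence of the RNA, and nuclei that share a state are not replicates.

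**Figure D4:**
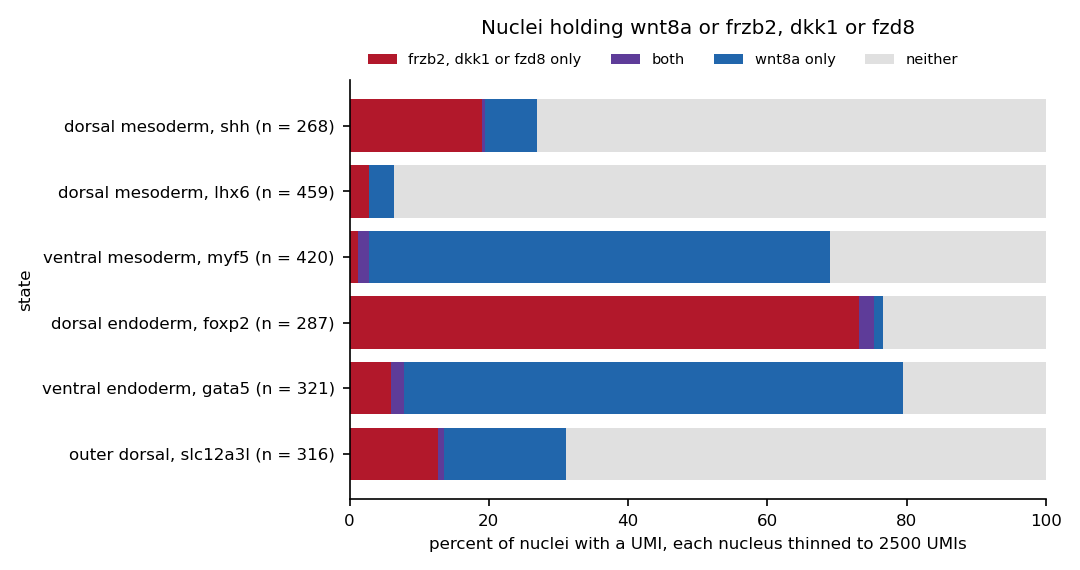
Percent of the nuclei of each mesoderm- and endoderm-like state (rows, with the number of nuclei) that held a UMI of frzb2, dkk1 or fzd8 only, of both kinds, of wnt8a only, or of neither, each nucleus thinned to 2500 UMIs. The first of these makes up 73.2% of the dorsal endoderm-like foxp2 state and wnt8a alone 71.7% of the ventral endoderm-like gata5 state, and nuclei with both make up 2.09% and 1.87%. The genes were picked by the comparison of these states, so the opposite shares restate it.

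Ordered over all states, wnt8a was highest in the gata5 state (967 and 941.3 CPM in the sublibraries), then in the myf5 state (663 and 595 CPM) and the cyp3a5 state (446 and 700 CPM). The last of these held 62 nuclei and its sublibraries spanned the level of the myf5 state, so their order cannot be told. The bmper, tbxt and slc12a3l states followed at 185, 174 and 171 CPM, with sublibrary values of 158 to 191 CPM that overlapped. The proportion of the 2 Wnt8 genes differed between the gata5, myf5 and bmper states, by intervals that cover counting error only. Wnt8b made up 5.21% of the UMIs of both genes in the gata5 state (85 UMIs beside 1547 of wnt8a, 95% Clopper-Pearson interval 4.18 to 6.40%) and 1.39% in the myf5 state (0.87 to 2.12%). It was not found beside 515 UMIs of wnt8a in the bmper state, which allows up to 0.71%.

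The ligands wnt5b and wnt11b were highest in the tbxt state, a state of 132 nuclei with the most tbxt RNA (2393 CPM, tbxt being the Brachyury gene of mesoderm). Wnt5b showed 725 and 764 CPM there, then 557 and 547 CPM in the bmper state, 437 and 389 CPM in the lhx6 state and 429 and 366 CPM in the myf5 state. The last 2 overlapped between sublibraries. The lowest level was 16.1 and 25.0 CPM in the outer non-neural ectoderm-like ugt3a2 state. Wnt11b showed 258 and 208 CPM in the tbxt state, 159 and 218 CPM in the slc12a3l state and 167 and 145 CPM in the lhx6 state, which overlapped in part. It was also found in 2 of the states with dscaml1 and tp73, at 129 CPM (hepacam) and 102 CPM (rasal1).

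Of the R-spondins, rspo1 was found mostly in the states with dscaml1 and tp73. It stood at 28.2 and 26.7 CPM in the inner hepacam state, 14.2 and 21.5 CPM in the outer rasal1 state and 0 and 21.4 CPM in the cyp3a5 state, and at no more than 1.81 CPM in the other 18 states. Only 88 UMIs of rspo1 were counted in the nuclei kept, of which 51.1% lay in the hepacam state. The cyp3a5 state shared the levels of both axis sides, with 2528 and 3701 CPM of frzb, 350 and 286 CPM of fzd8 and 446 and 700 CPM of wnt8a. Nuclei with both wnt8a and frzb made up 40.3% of this state, where the product of the shares is 43.0%. Its chrd.1 (3168 CPM) and pnhd (397 CPM) were also both high. Of its 62 nuclei, 23 held frzb2, dkk1 or fzd8 alone, 22 wnt8a alone and 6 both, where the product of the shares would give 13.1. Its median doublet score of 0.074 was the highest of the 21 states, ahead of 0.053 in the slc12a3l state. Whether the state mixes nuclei of different kinds was not tested.

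Within the ectoderm, inner (deep) nuclei were set against outer (surface) nuclei, 2647 and 1579 nuclei. No member was called higher in inner nuclei (5.12% of all genes), and 3 were lower: rspo2, sfrp2 and fzd3 (7.29% of all genes). In sublibrary 2 alone 4 members passed 2-fold higher, and with a pseudocount of 0.2 CPM 6 were called higher. The shares of all genes under those settings were not counted, so nothing is read from these counts. The median log2 ratio was 0.41 for the members and 0.14 for all genes, and with median-of-ratios scaling it was 0.04 for all genes. Fzd3 separated the layers without overlap of states. It showed 74.3 and 90.6 CPM in inner nuclei, against 198 and 199 CPM in outer nuclei (log2 ratio -1.26 ± 0.19, but -0.83 with a minimum of 2000 genes), and the inner states spanned 76.2 to 90.8 CPM while the outer ones spanned 144 to 270.2 CPM. Rspo2 showed 17.7 and 13.3 CPM in inner nuclei, against 81.2 and 81.7 CPM in outer nuclei (log2 ratio -2.32 ± 0.28). Its states overlapped, since the outer golga7b state stood at 24.4 CPM and the inner epha3 state at 27.4 CPM. Rspo3 did not follow rspo2 here, at 10.3 CPM in inner nuclei against 4.39 CPM in outer ones (log2 ratio 1.06, but 0.71 in sublibrary 1). In barcodes with at most 200 genes, taken as RNA outside nuclei, rspo2 stood at 162 CPM and rspo3 at 190 CPM. Both sides of either ratio lay under these levels, and the part of such RNA in them was not tested.

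Sfrp2 showed 38.8 and 36.8 CPM in inner nuclei, against 132 and 114 CPM in outer nuclei (log2 ratio -1.67 ± 0.09). The outer layer was itself uneven. Sfrp2 stood at 195 CPM in the kcnip1 state and 148 CPM in the golga7b state, but at 73.5 CPM in the ugt3a2 state and 19.1 CPM in the gab2 state.

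Within the inner ectoderm, neural nuclei (1272) were set against non-neural nuclei (951). Here 4 members were higher in neural nuclei (1.27% of all genes): wnt11b, fzd4, fzd8 and sfrp4. Only 1 was lower (1.83% of all genes): fzd6, a receptor known in mice for its part in planar cell polarity. The median log2 ratio was 0.14 for the members and 0.05 for all genes. Fzd6 showed 41.4 and 40.1 CPM in neural nuclei, against 134 and 119 CPM in non-neural nuclei (log2 ratio -1.61 ± 0.08). The 3 neural states spanned 28.4 to 64.5 CPM and the 2 non-neural states 109.6 to 139.7 CPM. Fzd4 showed 33.5 and 37.5 CPM, against 14.0 and 15.2 CPM (log2 ratio 1.23 ± 0.03), and its states overlapped, with 22.7 CPM in the neural cobl state and 23.6 CPM in the non-neural pdgfa state. Wnt11b showed 12.99 and 14.8 CPM, against 2.46 and 4.01 CPM (log2 ratio 1.81 ± 0.25), and fzd8 12.3 and 10.6 CPM, against 5.34 and 3.204 CPM (log2 ratio 1.24 ± 0.28). In barcodes with at most 200 genes, taken as RNA outside nuclei, wnt11b stood at 45.4 CPM and fzd8 at 37.9 CPM. Both sides of their ratios lay under these levels, and the part of such RNA in them was not tested. Sfrp4 rests on 24 and 4 UMIs. Over the alternative settings the log2 ratio of sfrp4 went as low as 0.63, that of fzd4 as low as 0.74 and that of fzd8 as low as 0.83. These are under the log2 ratio of 1 (2-fold) needed for a call, with the sign unchanged.

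**Figure D5:**
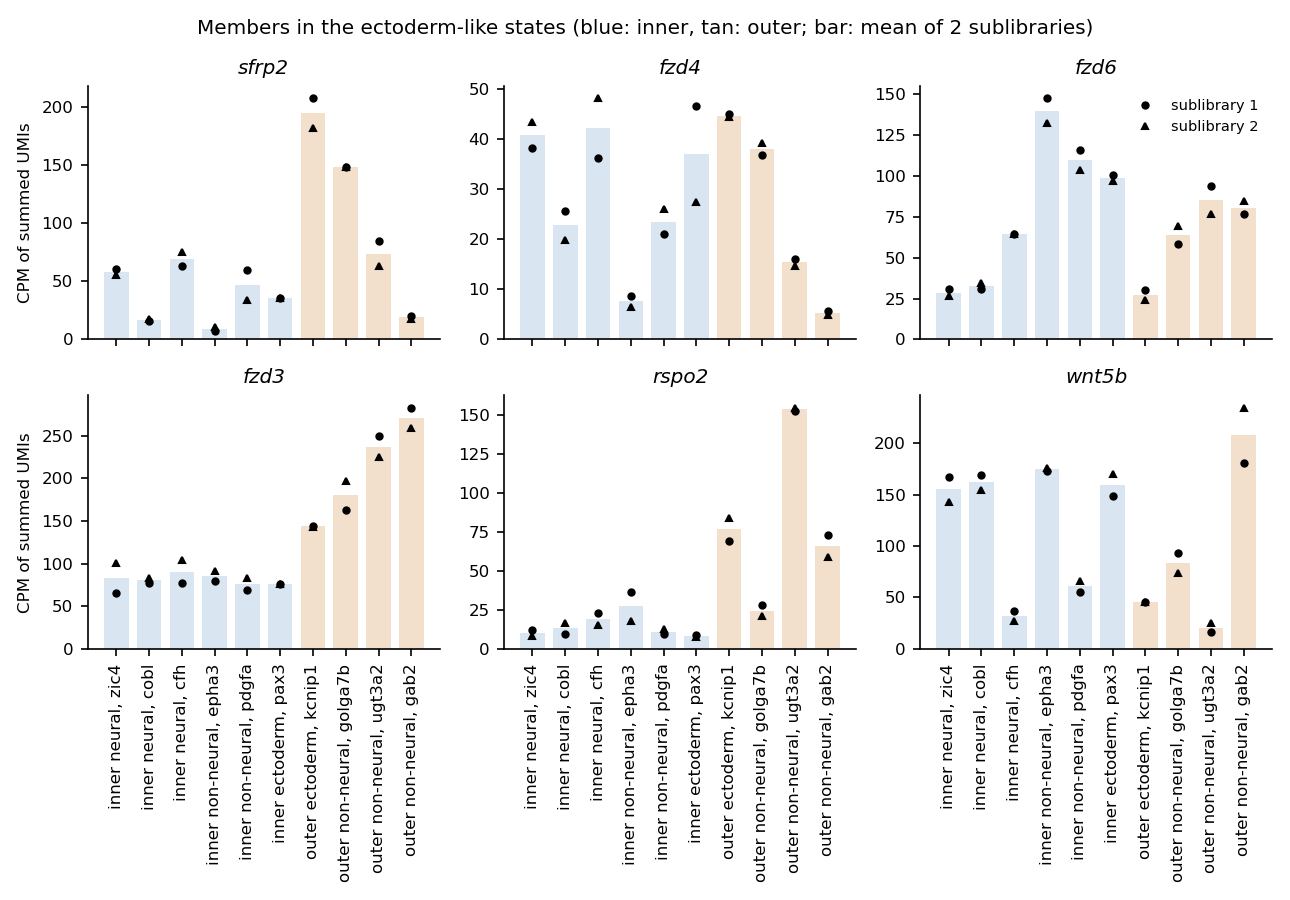
CPM of the summed UMIs of 6 members in the 10 ectoderm-like states, inner states in blue and outer states in tan, with the value of each sublibrary as a point and their mean as a bar, on an axis from 0. Fzd3 is higher in each outer state than in any inner state, and fzd6 is higher in the non-neural than in the neural inner states.

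Of the 30 members, 11 were called in none of the 5 comparisons: wnt3a, wnt4, wnt5a, wnt9a, rspo1, fzd1, fzd2, fzd7, lgr5, axin1 and axin2. Of these, wnt3a, wnt4, wnt5a, fzd1 and rspo1 had at most 167 UMIs in all nuclei. Fzd7, the receptor that Xenopus eggs carry as maternal RNA, was found in all states, at 105 CPM (bmper) to 632 CPM (cyp3a5), and stood at 508 CPM in the foxp2 state and 578 CPM in the gata5 state. Its level in the dorsal endoderm-like state, where fzd8 was 18.4-fold higher and fzd10 5.95-fold lower than in the ventral one on the CPM + 1 scale, differed by 0.18 on the log2 scale. Axin2, known as a gene that Wnt signalling switches on and as an inhibitor of the same pathway, was highest in the tbxt (486 and 644 CPM), myf5 (493 and 504 CPM) and gata5 (483 and 478 CPM) states and lowest in the rasal1 state (84.9 and 93.2 CPM). It stood at 282 CPM in dorsal and 481 CPM in ventral endoderm-like nuclei (log2 ratio -0.77), and at 243 CPM in dorsal and 499 CPM in ventral mesoderm-like nuclei (log2 ratio -1.04, but -0.98 in sublibrary 1).

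Of 67 other genes of the pathway, listed by role, 56 reached 50 UMIs. Of the 56, 3 were higher in ectoderm-like than in mesoderm- and endoderm-like nuclei (5.36%, against 6.2% of all genes) and 17 were lower (30.4%, against 8.32%). In inner over outer ectoderm-like nuclei 7 were higher (12.5%, against 5.12%) and 3 lower (5.36%, against 7.29%), and in inner neural over inner non-neural nuclei 1 was higher (1.79%, against 1.27%) and 2 lower (3.57%, against 1.83%). In dorsal over ventral mesoderm-like nuclei 2 were higher (3.57%, against 2.1%) and 9 lower (16.1%, against 1.83%), and in dorsal over ventral endoderm-like nuclei 3 were higher (5.36%, against 4.62%) and 8 lower (14.3%, against 3.83%). Nothing is read from the shares that lie near those of all genes. Some listed genes were also naming markers, so their calls were favoured in advance. These included cer1, msgn1, tbx6, myf5 and tbxt among the 17 lower, msgn1 among the 9, and msgn1, tbx6 and tbxt among the 8. The shares were not recomputed without them. The 3 higher in dorsal endoderm-like nuclei (5.36%, against 4.62% of all genes) are given singly, and no pattern by role is read from them. They were tcf7l1 (8225 against 2002 CPM), a repressor of Wnt target genes, trabd2a (1185 against 71.0 CPM) and dkkx. Trabd2a is the Tiki1 protease that inactivates Wnt proteins in Xenopus. Dkkx, a gene of the Dickkopf type by its name, had 101 UMIs against 1 UMI, a ratio of 100.5 with a 95% counting interval of 17.6 to 4008. Lef1, a transcription factor that activates Wnt target genes, was lower in dorsal nuclei of both germ layers (189 against 794 CPM in endoderm-like and 260 against 938 CPM in mesoderm-like nuclei), and tcf7l1 was higher in both (4346 against 2082 CPM in mesoderm-like nuclei).

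Of 13 genes known as targets of zygotic Wnt signalling, 7 were lower in dorsal than in ventral endoderm-like nuclei (sp5, sp5l, msgn1, tbx6, tbxt, meis3 and msx1), against 3.83% of all genes, and 5 in dorsal than in ventral mesoderm-like nuclei (sp5, cdx1, msgn1, pax3 and msx1), against 1.83% of all genes. Sp5 rests on 3 UMIs in dorsal and 11 in ventral endoderm-like nuclei, and its 95% counting interval of 0.97 to 20.6 for ventral over dorsal includes 1. Msgn1 and tbx6 were naming markers of ventral mesoderm and tbxt of mesoderm. Pax3 and msx1 were in the neural border list, which gave no state its name. Through pax3, that list kept the inner ectoderm-like pax3 state (424 nuclei) from being named non-neural. Meis3 stood at 194 CPM in dorsal and 824 CPM in ventral endoderm-like nuclei, and sp5l at 106 and 234 CPM. Of 8 listed co-receptors and other receptors, lrp5, ror1 and ror2 were higher in the inner than in the outer ectoderm, against 5.12% of all genes. Lrp6, ryk, ptk7, kremen1 and kremen2 were called in neither direction. Wls, the carrier of Wnt proteins to the cell surface, was also higher in the inner ectoderm. It showed 127 CPM in inner nuclei against 46.4 CPM in outer ones (log2 ratio 1.44). Ror2 showed 1002 CPM in inner nuclei against 329 CPM in outer ones (log2 ratio 1.60). Its states overlapped, since the inner pax3 state stood at 189 CPM and the outer kcnip1 state at 577 CPM.

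RNA outside nuclei was read from the 189517 barcodes with at most 200 genes. Wnt8a stood there at 168 CPM and frzb at 267 CPM, against 130 and 254 CPM over all nuclei. Levels of wnt8a (6.20 to 28.4 CPM) and frzb (5.42 to 18.7 CPM) in ectoderm-like states were under those of the free RNA. The part of free RNA in these levels was not tested.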

How the data were processed

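Nuclei of whole wild-type Xenopus tropicalis embryos at stage 10.5 were profiled by combinatorial barcoding as 1 pool in 2 sublibraries. The authors aligned the reads with the Parse pipeline to UCB_Xtro_10.0 and deposited whole-number counts of UMIs per gene and barcode for 21821 genes and 215209 barcodes, with gene, transcript and read counts per barcode. The submitters' processing notes also name Scanpy 1.9.6 and Seurat. The members and lists were chosen with earlier results of these data known, and the naming rule and the resolution were set after marker values had been seen.

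Barcodes with at least 1500 genes were kept (8474). Scrublet's automatic threshold marked 0 doublets, so nuclei with a score above 0.15 were removed (9.25%). Counts were scaled to 10000, and 2000 variable genes without the members and pathway genes, 30 components, 15 neighbours and Leiden clustering (scanpy 1.11.5, leidenalg 0.10.2, igraph 0.11.9) gave 23 clusters. Resolution 2 replaced the planned 1, at which no dorsal and ventral pair could be named. Clusters were named from marker lists by a score margin of 0.2 and at least 3 raised markers, and 2 clusters (197 nuclei) were left out. Names are rebuilt and may differ from the study's.

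UMIs were summed per class or state and sublibrary and given as CPM. Genes with at least 50 UMIs were compared as log2 ratios of CPM + 1, and a call needed 2-fold with the same sign in both sublibraries. All members with at least 50 UMIs were described, and those called in a comparison in full. Intervals (95%, exact Poisson or Clopper-Pearson) cover counting error only. The procedure was tested on simulated data (numpy 2.4.6, scipy 1.17.1, scikit-learn 1.9.0). Figures were drawn with matplotlib 3.10.9. Gene positions and names came from RefSeq (47 of 47 symbols matched). Alternatives covered the gene minimum, doublets, resolution, variable genes, seed, pseudocount, UMI minimum, scaling, averaging, each sublibrary and the dorsal mesoderm-like class without its lhx6 state.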

Additional observations from a re-analysis of the deposited data

How the results depend on the processing

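No paired analysis was possible because all nuclei belong to 1 group. The 41 ratios of called members were recomputed under the alternatives, giving 686 values, of which 487 moved by less than the spread between sublibraries, 197 moved by more and 2 changed sign, both in dorsal over ventral mesoderm-like nuclei: wnt8b was 0.38 with a minimum of 1000 genes, and wnt11b -0.80 without the lhx6 state. The alternatives of the UMI minimum cannot change a ratio. The pooled ratio lies between those of the sublibraries, so leaving 1 out seldom moves it by more than their spread. These runs add to the 487 without testing the ratios. Of the 41, 28 stayed at least 1 in size in each alternative run. Without a UMI minimum 47 members were described. Members higher in inner ectoderm-like nuclei (0 as reported) numbered 5 and 1 with minimums of 1000 and 2000 genes, 2 without doublet removal, 2 at resolution 0.5, 1 with the members kept in the clustering, 6 with a pseudocount of 0.2 CPM, and 0 to 4 with 1 sublibrary left out. Members higher in neural nuclei numbered 2 with a minimum of 1000 genes, 1 at resolution 0.5, 2 with a pseudocount of 5 CPM, and 4 to 6 with 1 sublibrary left out. Members lower in neural nuclei numbered 2 without doublet removal, at resolution 1 (the planned setting, run as an alternative once resolution 2 had replaced it), at resolution 3 (chosen after seeing the data), with another seed, with a pseudocount of 0.2 CPM and without a UMI minimum. Members higher in dorsal mesoderm-like nuclei numbered 4 with the mean of single nuclei, 4 without the lhx6 state (an alternative chosen after seeing the data) and 2 to 7 with 1 sublibrary left out, and those lower numbered 2 with a minimum of 1000 genes. With a minimum of 2000 genes and at resolutions 0.5 and 1, no dorsal and ventral mesoderm-like or ventral endoderm-like class could be named, so no value was obtained. The shares of all genes were not counted beside these counts of members, so nothing is read from them. The cause of these changes was not tested. Low counts limit sfrp1, sfrp4, wnt7a and wnt8b most.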

Other observations

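P4htm, which overlaps frzb2, stood at 65.7 CPM in the dorsal endoderm-like foxp2 state and 39.5 CPM in the cyp3a5 state, the same 2 states in which frzb2 was highest. Fbxl14, which overlaps wnt5b, stood at 57.9 CPM in the tbxt state and 23.0 CPM in the ugt3a2 state, where wnt5b stood at 745 and 20.7 CPM. LOC493495, the neighbour of wnt11b at a distance of 5950 bases and named after its values were seen, stood at 206 CPM in the tbxt state, 163 CPM in the lhx6 state and 1.35 CPM in the ugt3a2 state, where wnt11b stood at 232, 158 and 1.35 CPM. Whether reads of one gene of a pair were counted for the other was not tested.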
